A study of Mus musculus with 6 samples.

Results

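The genes described here encode the steps of glycolysis and the transcriptional response to low oxygen. They are 40 gene symbols taken by name from the deposited table of 18019 genes, and all 40 were present in it. Of these, 27 belong to glucose uptake, glycolysis and the fate of pyruvate and lactate (the glycolytic steps), 6 are the hypoxia-inducible factor HIF1 and its regulators, and 7 are other HIF1 targets. Expression was measured by polyadenylated RNA sequencing in RAW264.7, a transformed mouse macrophage line, and every library came from cells induced with lipopolysaccharide (LPS), a bacterial cell wall component. The control group, with no TPPU, had 3 libraries, and the group given TPPU, an inhibitor of soluble epoxide hydrolase, had 3. The labels carry no TPPU dose, LPS dose or time, and all libraries share 1 batch label. A single cell line was used, and no label tells if replicates were grown as separate cultures. The p-values therefore reflect only the scatter among these samples, which may be technical.

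Glycolysis splits glucose into pyruvate in the cytosol, and lactate dehydrogenase then turns pyruvate into lactate, which leaves the cell through monocarboxylate transporters. Macrophages that meet LPS are known for a shift towards this route. HIF1 pairs an oxygen-regulated subunit, HIF1α, with the constitutive partner ARNT and binds a short core sequence in the promoters of many glycolytic genes. Prolyl hydroxylases of the EGLN family mark HIF1α for the ubiquitin ligase subunit VHL when oxygen is present.

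The core of the HIF1 binding sequence is ACGTG or GCGTG, and the promoter windows of 4 members are shown. Pfkfb3 and Slc2a1 were taken because they had the largest log2 changes of the members in size. Pgk1 and Ldha were taken as abundant enzymes whose group means lay close together. Each window is the 250 bases before an annotated start in RefSeq's GRCm38.p6 table (the mm10 build), 5′ to 3′ on the gene's strand, and the capitals mark ACGTG or GCGTG on either strand.
Pfkfb3, chr2:11553930-11554179, minus strand: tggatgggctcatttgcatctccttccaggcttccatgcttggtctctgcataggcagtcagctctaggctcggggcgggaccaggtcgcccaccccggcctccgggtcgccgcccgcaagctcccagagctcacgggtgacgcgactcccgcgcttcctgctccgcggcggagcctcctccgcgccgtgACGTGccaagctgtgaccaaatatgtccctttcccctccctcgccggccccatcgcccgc
Slc2a1, chr4:119108495-119108744, plus strand: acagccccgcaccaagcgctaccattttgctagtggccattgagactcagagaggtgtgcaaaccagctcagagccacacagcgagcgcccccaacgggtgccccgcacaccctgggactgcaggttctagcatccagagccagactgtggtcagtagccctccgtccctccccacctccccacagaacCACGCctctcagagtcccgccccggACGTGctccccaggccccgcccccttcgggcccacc
Pgk1, chrX:106186850-106187099, plus strand: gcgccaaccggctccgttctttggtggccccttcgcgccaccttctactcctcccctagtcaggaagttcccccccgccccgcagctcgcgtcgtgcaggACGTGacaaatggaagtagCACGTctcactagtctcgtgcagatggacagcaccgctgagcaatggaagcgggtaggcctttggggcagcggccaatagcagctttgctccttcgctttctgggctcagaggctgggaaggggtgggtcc
Ldha, chr7:46845554-46845803, plus strand: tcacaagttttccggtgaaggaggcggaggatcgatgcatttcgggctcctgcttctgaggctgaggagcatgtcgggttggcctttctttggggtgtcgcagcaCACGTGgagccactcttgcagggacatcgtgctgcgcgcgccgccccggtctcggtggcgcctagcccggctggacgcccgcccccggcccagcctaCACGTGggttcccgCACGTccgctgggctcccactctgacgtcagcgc
Of the 40 members 37 had at least 1 window. ACGTG was present on either strand in a window of 22 of those 37 genes (59.5%), against 26.5% of the 7703 tested genes with a window and 18.5% of all 27025 genes in the promoter table. Per window the shares were 45.6% of 57 for the members, 22.7% for tested genes and 16.6% for all. GCGTG was present in 26 of the 37 (70.3%), against 52.0% of tested genes. The 6-base palindrome CACGTG, which contains ACGTG on both strands and is also bound by MYC, was found in 7 of the 37 (18.9%) and in 10.3% of tested genes. In the Pfkfb3 window above, the first base of the ACGTG run lay 60 bases before the start, and in the Slc2a1 window it lay 36 bases before. Pfkfb3 and Ldha each had a further window, not shown, at an inner start. That of Pfkfb3 (chr2:11502091-11502340, minus strand) held 1 CACGTG, which gives 2 ACGTG matches, and 1 GCGTG. That of Ldha (chr7:46846832-46847081, plus strand) held 1 GCGTG. Neither core was found in the window at the annotated outer start of Vegfa, and both were found in the window at an inner start (chr17:46025164-46025413, minus strand). A match is a run of letters and not a measured binding site. The members were taken by name as glycolytic genes and HIF1 targets, so these shares cannot separate an excess of the core from that choice. The members had 57 windows for 37 genes, against 9820 for 7703 tested genes. Windows of a gene can overlap and count the same run again, as in Aldoa.

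After TPPU no member passed the test. Pfkfb3, which encodes the kinase that makes fructose 2,6-bisphosphate, the strongest activator of phosphofructokinase, had the largest log2 change in size of the members, at 75.2 ± 2.71 FPKM in control and 53.4 ± 2.18 after TPPU (SD, n = 3 each). Slc2a1, the glucose transporter GLUT1, Hk3, hexokinase 3, and Vegfa, the vascular growth factor, were also below control in all 3 TPPU libraries. So were Pfkp and Pgk1, with smaller changes, and 7.88% of all genes. Control replicate 3 was the highest library for Slc2a1, Hk3 and Vegfa. Without it their log2 changes went from -0.42, -0.29 and -0.38 to -0.28, -0.17 and -0.26. Among the abundant enzymes, the changes of Pkm, Pgk1, Aldoa and Ldha were smaller in size than 0.1 on the log2 scale, and those of Eno1 and Pgam1 were -0.15 and -0.10, and Hif1a itself overlapped between the groups.

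Values are FPKM (fragments scaled by gene length and by library depth), which puts genes on 1 scale. Levels can be compared between genes only roughly. Those of genes with shared sequence depend on how fragments were assigned, and the libraries differ in their trend with GC content, as described below. Fold changes are differences of log2(FPKM + 1) from limma with a mean-variance trend, fitted on the 9728 genes that reached 1 FPKM in 3 or more libraries, and understate the change of low genes. Of the 40 members 36 passed that filter. Pfkfb1, Ldhb, Egln3 and P4ha2 did not. Adjusted p-values are Benjamini-Hochberg values over all 9728 genes, with a threshold of 0.05. Of the 36 members 0 passed that threshold, as did 0 of all genes tested (0%). At an unadjusted p under 0.05 there were 4 members lower and 0 higher, where the share over all genes was 3.7% lower and 4.19% higher. In 6 members every TPPU library was below every control, and in 1 every TPPU library was above, against 7.88% and 7.48% of all genes. The change was below 0 in 26 of the 36, against 45.6% of all genes.

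Estimated from the step of the lowest FPKM values, depth was 17.9 to 23.1 M (mega) fragments per library, and 92.5% to 94.5% of the low values used were whole fragments within 0.1. A floor of 3 fragments in a transcript of 1 kb was worth 0.130 to 0.168 FPKM and covers counting error only. Of 10 macrophage markers 9 were at 1 FPKM or more in at least 3 libraries, with a sum of 1943 to 2320 FPKM in control and 2057 to 2174 after TPPU, and markers of T and B cells, chondrocytes, epithelium and erythroid cells summed to 1.03 FPKM or less in every library. All 5 hepatocyte markers listed were at 1 FPKM or more, summing to 36.4 to 70.2 FPKM in control and 79.7 to 151 after TPPU, and their part in the results was not tested. Fibroblast markers summed to 3.54 to 7.96 in control and 3.00 to 3.79 after TPPU. Control replicate 3 stood apart. Across genes, which are no independent replicates, the GC content of the transcript and that library's deviation from the mean had a Spearman's rho of 0.61, and mitochondrial transcripts made up 0.371% of its FPKM, against 0.914% to 1.85% in the others. TPPU replicate 1 had the next lowest mitochondrial share and a rho of 0.24. The rho was negative in the others, at -0.19 and -0.45 in control replicates 1 and 2, and -0.29 and -0.42 in TPPU replicates 2 and 3. Among the 22 members refitted under the alternatives, values without control replicate 3 are given beside the log2 changes that this library moves most. For single genes of the further lists no such values are given.

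**Figure D1:**
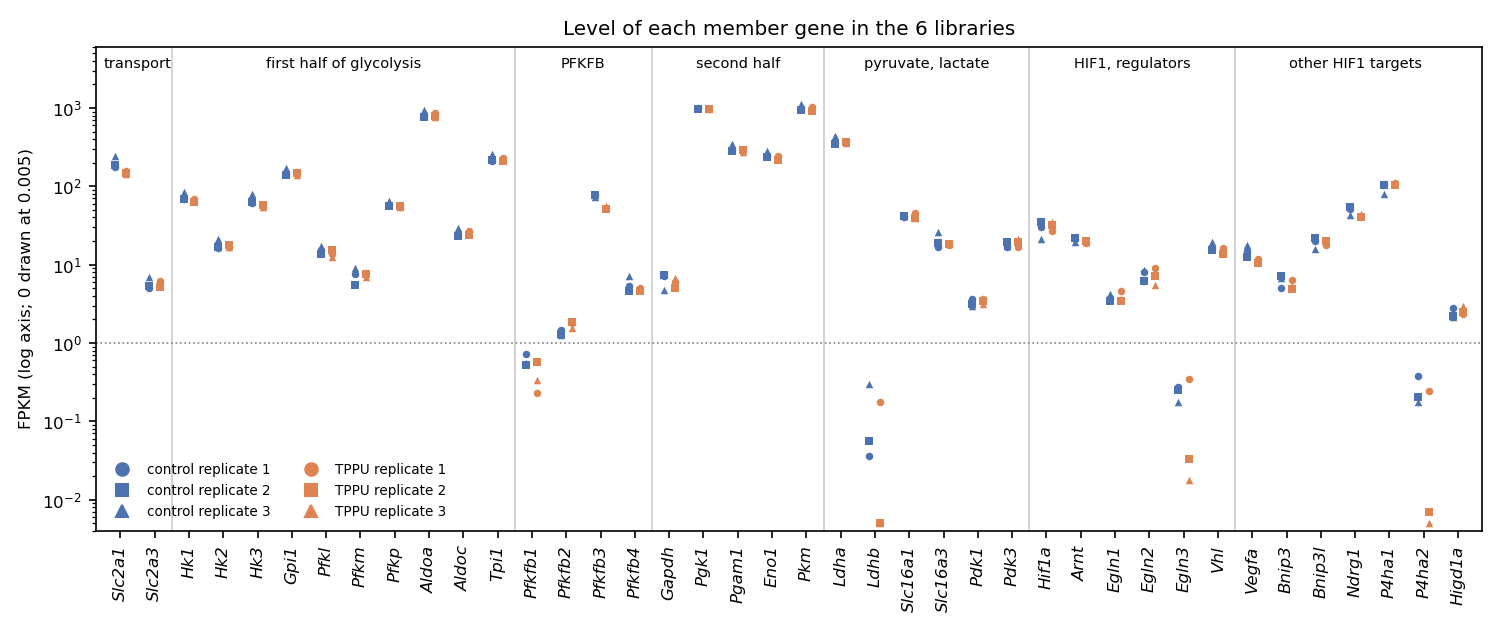
FPKM of the 40 members (log axis, 0 drawn at 0.005) in each library, ordered by role, with controls in blue, TPPU in orange and 1 marker shape per replicate number; the dotted line marks 1 FPKM. Levels run from Pkm and Pgk1 at the top to Ldhb, Egln3 and P4ha2 near 0, and the groups lie close together for most genes.

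Glucose enters these cells through transporters of the SLC2A family, and Slc2a1 was by far the more abundant member, at 97.2% ± 0.0253 of the summed Slc2a1 and Slc2a3 FPKM in control. Slc2a1 (chromosome 4, 119108711 to 119137983, plus strand, mm10 with GENCODE M21) measured 175, 190 and 246 FPKM in control replicates 1, 2 and 3, and 158, 148 and 144 in TPPU replicates 1, 2 and 3. Every TPPU value lay below every control value, and control replicate 3 was the highest of the 6. An antisense gene overlapping it, Gm12868, was listed at a median of 1.99 FPKM. The log2 change was -0.42 (SE 0.13, limma adjusted p = 0.5145), and -0.28 without control replicate 3 (limma adjusted p = 0.271). Slc2a3, which encodes the high-affinity transporter GLUT3, measured 5.02, 5.38 and 6.94 in control and 6.11, 5.19 and 5.49 after TPPU, and the groups overlapped. Its log2 change was -0.03 (SE 0.14), with a 95% interval of -0.34 to 0.28, and turned to 0.0880 without control replicate 3 and 0.0134 without TPPU replicate 2. Within each library the log2 ratio of Slc2a1 to Slc2a3 was 5.12, 5.14 and 5.15 in control and 4.69, 4.84 and 4.72 after TPPU. This ratio does not depend on how a library is scaled, and the groups did not overlap (difference in log2 -0.39, two-sided exact permutation p = 0.1, the smallest that 3 against 3 can give, and 0.6 adjusted over 12 ratios). It stayed between -0.43 and -0.36 with each library left out in turn.

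Hexokinases trap glucose as glucose 6-phosphate. Hk1, the housekeeping form, and Hk3, a form found in myeloid cells, made up most of the hexokinase FPKM, and Hk2, the inducible form, 11.3% ± 0.0231 in control and 12.5% ± 0.368 after TPPU. Hk3 (chromosome 13, 55005985 to 55021385) measured 61.1, 63.5 and 80.2 FPKM in control and 54.6, 57.1 and 54.2 after TPPU. The groups did not overlap, and control replicate 3 was again the highest library. The log2 change of Hk3 was -0.29 (SE 0.12, limma adjusted p = 0.6), and -0.17 without control replicate 3. Hk1 measured 68.2, 67.9 and 84.8 in control against 68.0, 63.0 and 64.3 after TPPU, which overlapped (log2 change -0.17, SE 0.11, or -0.06 without control replicate 3). Hk2 measured 16.5, 16.7 and 20.95 in control and 16.9, 17.7 and 16.8 after TPPU. Its log2 change of -0.06 (95% interval -0.33 to 0.20) turned to 0.0419 without control replicate 3. The log2 ratio of Hk2 to Hk1 was higher in all 3 TPPU libraries, at -2.01, -1.83 and -1.93, than in the controls, at -2.05, -2.02 and -2.02 (difference 0.10, exact permutation p = 0.1, adjusted 0.6), and the difference without TPPU replicate 2 was 0.06.

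Phosphofructokinase commits sugar to glycolysis, and its platelet-type subunit gene Pfkp accounted for 72.5% ± 1.84 of the family's FPKM in control and 72.1% ± 1.28 after TPPU. Pfkp measured 57.2, 56.2 and 65.8 FPKM in control and 55.2, 55.7 and 53.9 after TPPU. The groups did not overlap, but the nearest values, in TPPU replicate 2 and control replicate 2, were within 1 FPKM (log2 change -0.11, SE 0.09, limma adjusted p = 0.759, or -0.04 without control replicate 3). Pfkp shares exon sequence with Pitrm1 on the opposite strand, which measured 28.2 FPKM (median), and whether the authors counted by strand is not given in the sources used here. The liver-type and muscle-type subunit genes Pfkl and Pfkm measured 15.3 ± 1.8 and 7.42 ± 1.78 in control, and 13.9 ± 1.33 and 7.43 ± 0.442 after TPPU. The other early enzymes overlapped between the groups as well. Aldoa, the main aldolase, measured 836 ± 85.4 and 803 ± 55.8, and its paralog Aldoc 25.6 ± 3.55 and 25.3 ± 1.68. Gpi1, which isomerizes glucose 6-phosphate, measured 152 ± 16.9 and 147 ± 5.92, and Tpi1, triose phosphate isomerase, 230 ± 27.6 and 222 ± 11.7. Control replicate 3 was the highest of the 6 libraries for all 10 genes of this group.

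The PFKFB enzymes make and break fructose 2,6-bisphosphate and so set the pace of phosphofructokinase. Pfkfb3 (chromosome 2, 11471433 to 11554077, minus strand) measured 77.0, 76.4 and 72.05 FPKM in control and 53.5, 51.2 and 55.6 after TPPU. The groups lay well apart, and control replicate 3 was the lowest control, unlike in most of the pathway. Its log2 change was -0.48 (SE 0.08, 95% interval -0.68 to -0.29), a mean 28.9% below control. The limma p was 3.35e-04 unadjusted and 0.233 adjusted, which ranked it 14 among the 9728 genes and 10 among those with a negative change. A larger fall in log2 was fitted for 107 genes. Left out in turn, the 6 libraries gave changes from -0.51 to -0.46 and limma adjusted p from 0.0868 to 0.879. With libraries weighted by quality the gene passed (-0.53, limma adjusted p = 0.00721), as did 1.74% of all genes. These weights were estimated from the scatter of the same 6 libraries, at 3.84 for control replicate 1 and 0.191 for control replicate 3. With them 19.6% of all genes had an unadjusted limma p under 0.05, against 7.89% without. Pfkfb3 also passed with control replicate 3 and TPPU replicate 1 both left out, an alternative added after the data were seen (-0.52, limma adjusted p = 0.0327). Its transcript GC content of 50.2% was near the median of 49.6% over the tested genes, and with the GC trend of each library removed the change was -0.49 (limma adjusted p = 0.0672).

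The other PFKFB genes were far less abundant, and Pfkfb3 made up 90.8% ± 1.67 of the family's FPKM in control and 88.4% ± 0.72 after TPPU. Pfkfb2, the form described in heart, measured 1.47, 1.31 and 1.26 in control and 1.79, 1.87 and 1.55 after TPPU. The TPPU libraries were all above the controls, and it was the 1 member with that pattern (log2 change 0.22, SE 0.13, limma adjusted p = 0.69). On the log2(FPKM + 0.1) scale the change of this low gene was 0.34 (SE 0.21). The groups overlapped with the GC trend removed, and 25.1% of its 50-base runs are shared with an annotated transcript of Gm29427, which was listed at a median of 0. Yod1, which overlaps it on the opposite strand, was at a median of 7.34 FPKM. Pfkfb4 measured 5.30, 4.55 and 7.08 in control and 5.10, 4.66 and 4.82 after TPPU, with overlap (log2 change -0.16, SE 0.15, or -0.01 without control replicate 3). Pfkfb1, the liver form, was below the filter, at 0.718, 0.52 and 0.56 in control and 0.232, 0.568 and 0.34 after TPPU (exact permutation p = 0.3).

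**Figure D2:**
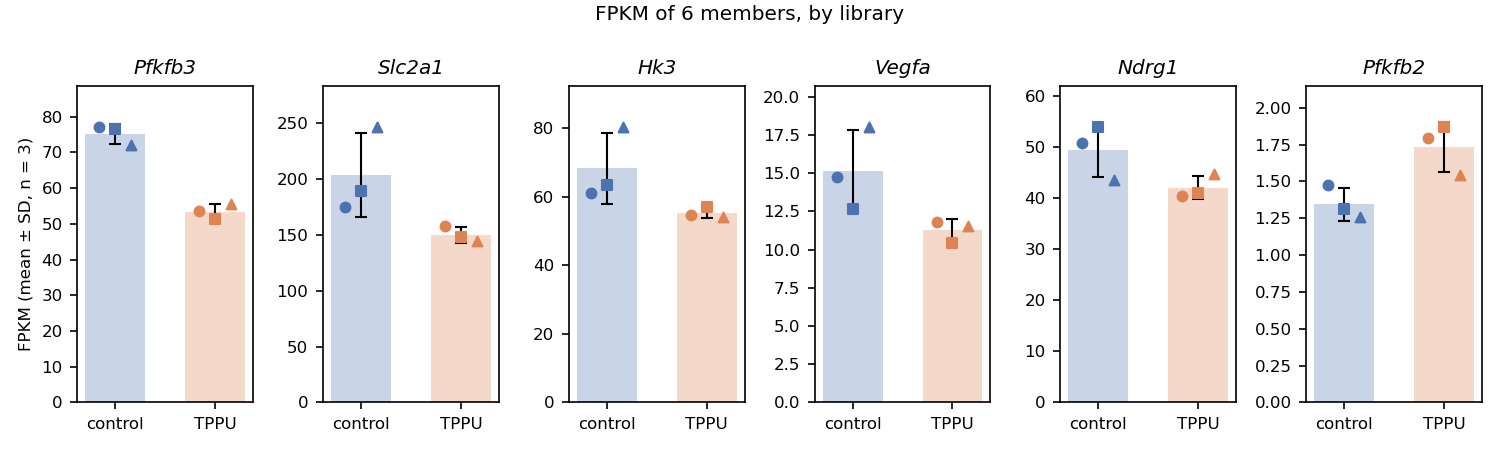
FPKM of 6 members by library; points are libraries (replicate 1 circle, 2 square, 3 triangle), bars the group mean and error bars the SD (n = 3 each), with axes from 0. Pfkfb3 falls into tight groups at 72.05 to 77.0 and 51.2 to 55.6 FPKM, whereas in Slc2a1, Hk3 and Vegfa control replicate 3 is the highest library.

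The later steps of glycolysis yield ATP and pyruvate, and of all members Pkm and Pgk1 had the highest mean levels. Pkm, pyruvate kinase, measured 964, 932 and 1133 FPKM in control and 1016, 925 and 961 after TPPU. The groups overlapped, with a log2 change of -0.06 (SE 0.09, 95% interval -0.27 to 0.16), or 0.0283 without control replicate 3. Pgk1, phosphoglycerate kinase, had SDs of 9.92 in control and 9.60 after TPPU. Its TPPU values of 976, 967 and 956 lay below its control values of 995, 982 and 1002, with means of 993 and 966 (log2 change -0.04, 95% interval -0.19 to 0.11). Eno1, enolase 1, measured 244, 235 and 279 in control and 242, 216 and 225 after TPPU, and Pgam1, phosphoglycerate mutase, 294, 283 and 344 against 293, 287 and 275. Both overlapped between the groups, with log2 changes of -0.15 (SE 0.09) and -0.10 (SE 0.09), or -0.07 and -0.02 without control replicate 3.

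Several of these enzymes have near-identical copies elsewhere in the genome, so their levels depend on how shared fragments were assigned, which is not given in the sources used here. Gapdh, the glyceraldehyde 3-phosphate dehydrogenase often used as a loading control, was listed at 7.22, 7.45 and 4.80 FPKM in control and 6.03, 5.10 and 6.68 after TPPU. That is far below its pathway neighbours Tpi1 and Pgk1, at 222 and 966 FPKM after TPPU. Of the 50-base runs in the longest coding transcript of Gapdh, 82.5% occur exactly in transcripts of 218 other annotated genes, 215 of them pseudogenes. For Eno1 the share was 72.2%, and its copy Eno1b, named after its values were seen, measured 205 ± 28.9 in control and 208 ± 10.6 after TPPU. Summed, Eno1 and Eno1b measured 458 ± 51.6 and 435 ± 23.7, with overlap. The shares for Pgk1, Pgam1 and Pkm were 68.0%, 41.5% and 34.4%, and these genes were listed at 275 FPKM or more in every library. For Pfkfb3 the share was 0.61% and for Slc2a1, Hk3, Pfkp and Ndrg1 it was 0%. The part of shared sequence in the level of Gapdh was not tested.

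Pyruvate is reduced to lactate by lactate dehydrogenase, and Ldha supplied nearly all of it. Ldha measured 362, 350 and 434 FPKM in control and 377, 368 and 360 after TPPU, which overlapped (log2 change -0.04, SE 0.10, 95% interval -0.27 to 0.18). Without control replicate 3 its change was 0.0501. Ldhb was at 0.036, 0.0566 and 0.3 in control and at 0.175, 0 and 0 after TPPU, near the floor of a few fragments. The lactate exporter gene Slc16a3 (MCT4) measured 16.8, 19.0 and 25.9 in control and 17.997, 18.6 and 18.3 after TPPU, and the spread in control came from replicate 3. Its change was -0.14 (SE 0.15), and 0.0295 without that library. Slc16a1 (MCT1) was the more abundant exporter and measured 41.4 ± 0.831 and 41.6 ± 3.29. Pdk1 and Pdk3 encode kinases that shut pyruvate dehydrogenase, and Pdk3 made up 84.6% ± 2.06 of their sum in control. Pdk3 measured 16.9, 19.4 and 17.2 in control and 16.8, 19.6 and 21.5 after TPPU (change in log2 0.10, SE 0.12). Pdk1 measured 3.63, 3.13 and 2.93 against 3.66, 3.42 and 3.19 (log2 change 0.07, SE 0.12, or 0.01 without control replicate 3). Both overlapped between the groups.

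**Figure D3:**
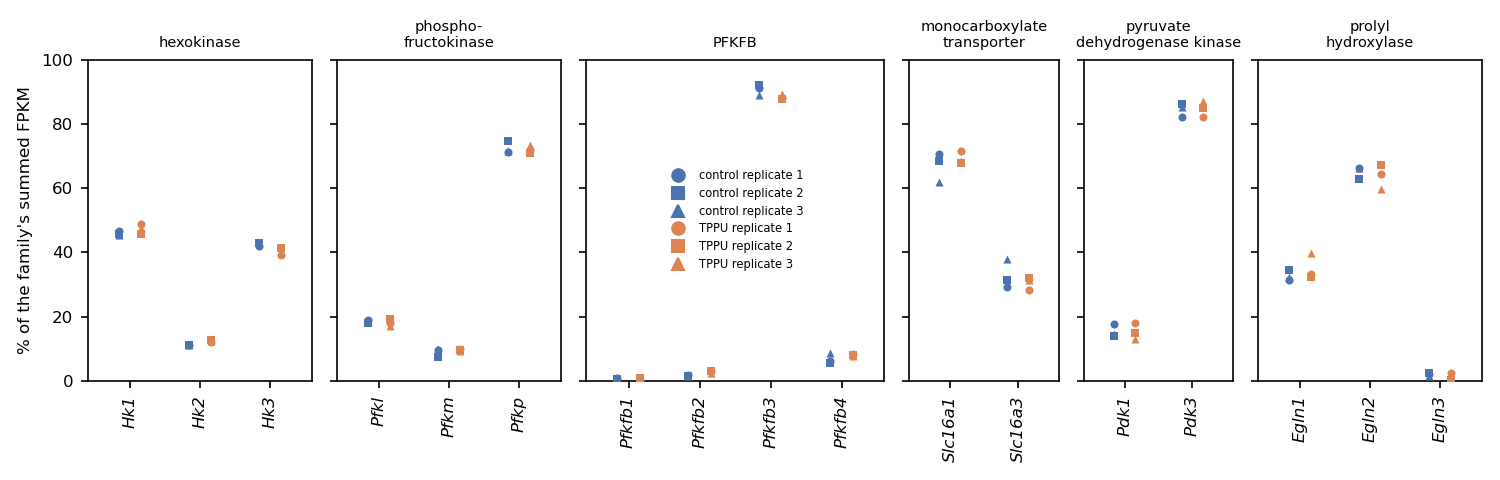
Share of each family's summed FPKM held by each gene (%), in 6 families, with controls in blue, TPPU in orange and 1 marker shape per replicate number. The leading form is the same in every library: Hk1, Pfkp, Pfkfb3, Slc16a1, Pdk3 and Egln2.

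Over the 25 glycolytic steps tested, the median log2 change was -0.06, with 20 below 0 and 5 above, where the median over all genes was 0.02. Control replicate 3 was the highest library for 19 of these 25 genes, against 34.8% of all genes, and its median deviation from the gene means was 0.22, with the other 5 libraries between -0.07 and -0.01. Without it the median change of the steps was 0.02, as it was over all genes. The median GC content of the 25 genes was 52.6%, against 49.6% over all tested genes. With the GC trend of each library removed, control replicate 3 was still the highest library for 18 of the 25, against 37.2% of all genes, and the median change was -0.08. Within the control group the SD of log2(FPKM + 1) was larger than within the TPPU group for 21 of the 25 (84.0%), against 69.2% of all genes. Why that library differed was not tested.

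**Figure D4:**
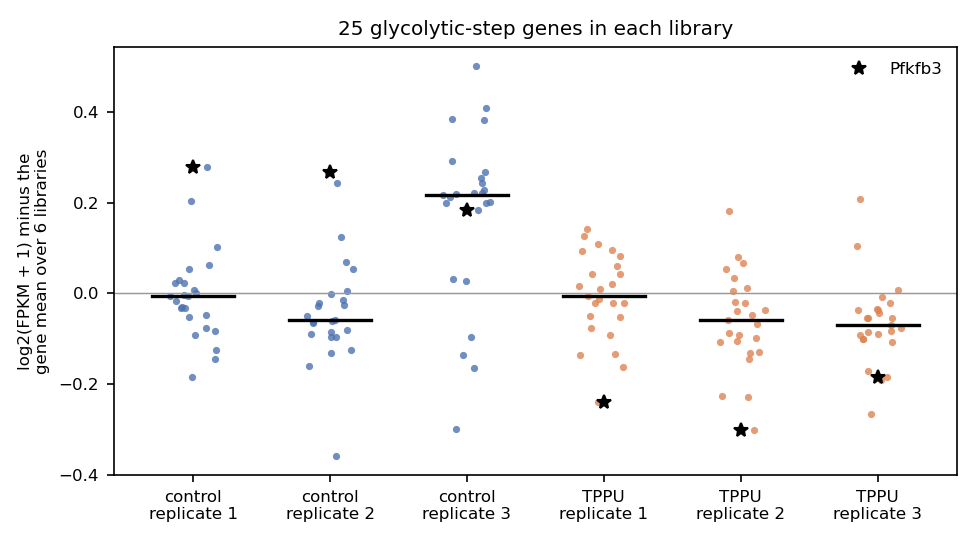
Deviation of each of the 25 tested glycolytic-step genes from its mean over 6 libraries, in log2(FPKM + 1) on the y axis, by library; bars are medians and stars mark Pfkfb3. Control replicate 3 has a median of 0.22, while Pfkfb3 is high in all 3 controls and low in all 3 TPPU libraries.

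Among HIF1 and its regulators no gene separated the groups in the FPKM as listed, and the median change over the 5 tested was -0.08. Without TPPU replicate 3 that median was 0.0479. Hif1a, which encodes the oxygen-regulated subunit, measured 30.0, 35.5 and 21.1 FPKM in control and 26.7, 32.1 and 35.2 after TPPU. Its lowest values were those of control replicate 3 and TPPU replicate 1, which also had the smallest mitochondrial shares, and its transcript GC content was 41.3%. The log2 change of 0.13 (SE 0.19, 95% interval -0.29 to 0.56) was -0.0667 without control replicate 3 and 0.03 with the GC trend removed. Arnt measured 21.5, 22.2 and 19.6 in control and 19.0, 19.8 and 19.6 after TPPU (change in log2 -0.11, SE 0.09, or -0.16 without control replicate 3). Vhl measured 15.9, 15.5 and 19.2 against 16.5, 13.7 and 15.2 (log2 change -0.14, SE 0.12, or -0.05 without control replicate 3). Both overlapped. Of the hydroxylase genes Egln2 was the most abundant, at 7.61 ± 1.2 in control and 7.2 ± 1.77 after TPPU, followed by Egln1, at 3.82 ± 0.368 and 3.91 ± 0.666.

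Egln3, itself a HIF1 target, was low throughout. It measured 0.276, 0.25 and 0.177 FPKM in control and 0.351, 0.033 and 0.0177 after TPPU. P4ha2, a collagen prolyl 4-hydroxylase subunit gene, was low as well, at 0.381, 0.206 and 0.176 in control and 0.246, 0.007 and 0 after TPPU. In both genes TPPU replicate 1 was within or above the control range while TPPU replicates 2 and 3 were near 0 (exact permutation p = 0.4 for Egln3 and 0.3 for P4ha2).

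The other HIF1 targets had a median change of -0.07 over 6 tested, with 3 below 0 and 3 above. Without control replicate 2 it was -0.01, and without control replicate 3 it was -0.11. Vegfa (chromosome 17, 46016993 to 46032369, minus strand) measured 14.7, 12.6 and 17.998 FPKM in control and 11.8, 10.4 and 11.6 after TPPU. The groups did not overlap, and the log2 change was -0.38 (SE 0.14, limma adjusted p = 0.564), or -0.26 without control replicate 3. Ndrg1, a stress-response gene induced by hypoxia, measured 50.9, 53.9 and 43.5 in control and 40.5, 41.0 and 44.8 after TPPU. One control value lay inside the TPPU range, that of replicate 3. The log2 change of Ndrg1 was -0.22 (SE 0.11, limma adjusted p = 0.63), and -0.31 without that library (limma adjusted p = 0.271). P4ha1, the main collagen prolyl 4-hydroxylase subunit gene here, measured 108, 103 and 78.6 in control and 109, 103 and 110 after TPPU, with control replicate 3 the lowest (log2 change 0.16, SE 0.12, or 0.02 without it). The mitophagy receptor genes Bnip3 and Bnip3l measured 6.33 ± 1.11 and 19.1 ± 3.15 in control, and 5.53 ± 0.685 and 19.2 ± 1.02 after TPPU. Higd1a, which encodes a mitochondrial protein induced by hypoxia, measured 2.39 ± 0.35 and 2.6 ± 0.36. These 3 genes overlapped between the groups.

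**Figure D5:**
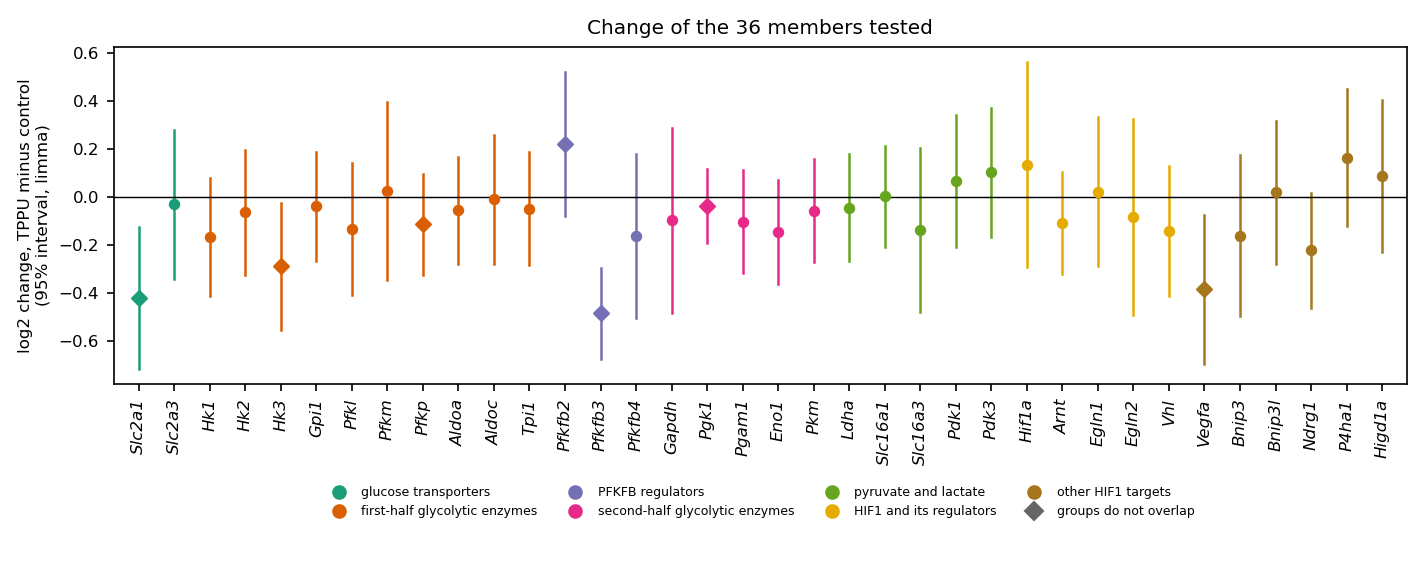
Log2 change of TPPU against control on the log2(FPKM + 1) scale with its 95% interval (limma), for the 36 members tested, coloured by role; diamonds mark genes whose groups do not overlap. The intervals of Slc2a1, Hk3, Pfkfb3 and Vegfa lie below 0, and no adjusted p passed 0.05.

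Across the 6 libraries the genes most like Pfkfb3 in log2(FPKM + 1) were Gdnf, Klf6, Il33, Mapk6 and Zfp84, with Pearson's r from 0.986 to 0.992 over 6 libraries that fall into the same groups. Klf6, a zinc-finger transcription factor, measured 59.3 ± 2.65 FPKM in control and 38.2 ± 1.62 after TPPU. Il33, which encodes a cytokine of the interleukin-1 family, measured 4.67 ± 0.186 and 2.05 ± 0.284, and Gdnf, a neurotrophic factor gene, 2.80 ± 0.147 and 1.72 ± 0.0883. Mapk6, which encodes the kinase ERK3, measured 42.5 ± 0.198 and 35.1 ± 0.976, and Zfp84 2.36 ± 0.0376 and 1.67 ± 0.0429. None of the members was among them. The member most like Pfkfb3 was Ndrg1 (r = 0.83), Slc2a1 had an r of 0.72, and Ldha one of 0.10.

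The genes around the pathway were read from lists of textbook membership, and none passed the adjusted threshold. Of 7 pentose phosphate genes 6 had a change above 0 and 0 separated the groups, where 7.88% of all genes separated downwards and 7.48% upwards. Pgd, 6-phosphogluconate dehydrogenase, measured 19.6 ± 2.84 FPKM in control and 16.9 ± 1.07 after TPPU, and Pgls, the lactonase of that route, 16.1 ± 1.52 and 18.2 ± 1.2. Of 8 glycogen genes 1 separated the groups, downwards, against 7.88% of all genes. It was Gys1, glycogen synthase, at 13.1 ± 1.83 and 10.8 ± 0.505, and Gbe1, the branching enzyme, measured 1.56 ± 0.288 and 1.35 ± 0.0532. Of 25 genes of pyruvate entry and the TCA cycle 18 had a change above 0 (median 0.09), and in 7 the TPPU values were all above the controls, against 7.48% of all genes. That count was 14 without control replicate 3 and 2 with the GC trend removed, where 17.0% and 8.48% of all genes did so. Suclg2, a succinate-CoA ligase subunit, measured 15.9 ± 1.26 in control and 20.7 ± 0.473 after TPPU (change in log2 0.36, SE 0.10, limma adjusted p = 0.434), and Fh1, fumarase, 46.0 ± 2.52 and 53.3 ± 3.71.

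Further HIF1 targets lay on both sides of 0, and none passed. Of 24 tested, 7 had all TPPU values below all controls and 2 had them above, where the shares over all genes were 7.88% and 7.48%. Both counts were the same over the 23 left with the GC trend removed, where the shares over all genes were 10.4% and 8.48%. Bhlhe40, a transcriptional repressor induced by hypoxia, measured 12.9, 16.3 and 18.3 FPKM in control and 10.6, 9.44 and 11.0 after TPPU (change in log2 -0.56, SE 0.14, limma adjusted p = 0.397). Car12, a carbonic anhydrase, measured 5.66, 5.11 and 5.31 in control and 7.03, 7.35 and 7.86 after TPPU (change in log2 0.40, SE 0.10, limma adjusted p = 0.41). The groups did not overlap in either gene, and control replicate 3 was the highest library for Bhlhe40. Of 8 further HIF pathway components, 4 lay below and 3 above all controls, and 4 and 0 with the GC trend removed, to be read against the same shares. Cited2, which competes with HIF1α for its coactivators, measured 83.5 ± 20.8 and 60.8 ± 5.57, and Eloc, the elongin C partner of VHL, 1.07 ± 0.447 and 1.92 ± 0.195. Control replicate 3 was the highest library for Cited2, at 107 FPKM, and the lowest for Eloc, at 0.640. The nearest Cited2 values were 68.1 in control replicate 1 and 66.7 in TPPU replicate 1. Among 9 tested other isoforms of the pathway, 1 separated downwards and 1 upwards, against 7.88% and 7.48% of all genes. Bpgm, which makes 2,3-bisphosphoglycerate, measured 1.88 ± 0.241 and 1.42 ± 0.283.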

How the data were processed

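The authors deposited 1 table of FPKM for 18019 gene symbols in 6 libraries, with the unit read from the table's name and values. The submitters' processing notes name mm10 as the build, and RNA was captured on oligo(dT) beads with dUTP marking of the second strand per the labels' protocols. The sources used here do not give the aligner, the counter or the annotation. FPKM carries no counts, so no count model was used. Columns were matched by the library name in each description. For the TPPU samples that description also names a column of another table after an sh-LIS1 knockdown, which was not used here. That the columns read here hold the TPPU libraries therefore rests on the library name only.

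The 9728 genes that reached 1 FPKM in 3 or more libraries were tested, two-sided, on log2(FPKM + 1). The fit used limma 3.58.1 under R 4.3.3, had no term but the group, and let the variance follow the mean. Low genes and within-library ratios were compared by exact permutation tests in Python 3.11.15. No set test was run. The members, lists and tests were chosen with earlier results of these data known. Full values are given for up to 3 members of each role with the smallest p, for 7 landmark genes, and for 2 genes of each further list, 1 of which is not reported here. Alternatives were quality weights, a pseudocount of 0.1 or of 0.5, a filter at a mean of 5 FPKM or none, quantile normalization, scaling by the median of ratios, no trend, a replicate block, removal of GC or length trends (loess, span 0.3, GENCODE M21 transcripts, 97.9% of tested genes matched) and each library left out. Shared sequence was searched as exact 50-base runs in the same transcripts. The limma script was tested on simulated data. Figures used matplotlib 3.10.9.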

Additional observations from a re-analysis of the deposited data

How the results depend on the processing

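Most values kept their direction. Of 416 alternative values for the log2 changes of 22 members, 396 kept direction and call, 18 changed sign and 2 newly passed, both for Pfkfb3. Of the 22 members 14 never changed sign. The filters, the fit without a trend and the replicate block return the same log2 change as the fit they alter. Those values could therefore differ only in their call, and their kept direction carries no information. No member passed otherwise. With quality weights 169 genes passed, 1 of them a member, and with the GC trend removed 1 gene passed, no member. With control replicate 3 and TPPU replicate 1 both left out, an alternative added after the data were seen, 39 genes passed, 1 of them a member, and 14 members lay below and 3 above all controls (19.3% and 24.8% of all genes). With the GC trend removed 10 members lay below and 0 above (10.4% and 8.48% of all genes). Left out in turn, the libraries gave 0 to 6 genes that passed, the 6 genes without TPPU replicate 1. They gave 2 to 5 members at an unadjusted limma p under 0.05, against 4.56% to 11.0% of all genes. From 6 to 10 members lay below and 1 to 4 above all controls, where 10.3% to 14.4% and 11.0% to 17.0% of all genes did so. With a library left out, the median change of HIF1 and its regulators ran from -0.0930 to 0.0479, the latter without TPPU replicate 3. Over the same alternatives the changes ran from -0.112 to 0.0880 for Slc2a3, -0.122 to 0.0419 for Hk2, -0.113 to 0.0283 for Pkm, -0.105 to 0.0501 for Ldha, -0.267 to 0.0295 for Slc16a3 and -0.0667 to 0.295 for Hif1a. Quality weights gave 0.0675 for Slc2a3, 0.0478 for Hk2, 0.0200 for Ldha, 0.0694 for Slc16a3, -0.0389 for Pdk1 and -0.000345 for P4ha1. Without both libraries named above, Slc2a3 was at 0.0326, Hk2 at 0.0520, Ldha at 0.0341, Slc16a3 at 0.0407 and Pdk1 at -0.0229. Of the 12 ratios, 4 changed sign with a library left out, ranging from -0.0272 to 0.0868 for Pfkp to Pfkl, -0.267 to 0.0143 for Slc16a3 to Slc16a1, -0.167 to 0.111 for Pdk1 to Pdk3 and -0.0184 to 0.219 for Egln1 to Egln2. The cause of these changes was not tested. No stated pairing goes with the replicate numbers, and deviations of same-numbered libraries had correlations of -0.301, 0.154 and -0.399. Those deviations also follow the GC trend of each library, so these correlations cannot tell if the numbers mark pairs. With a replicate block 0 genes and 0 members passed, and 3 members were at an unadjusted p under 0.05, or 4 with the GC trend removed too. The shares over all genes were 5.27% and 8.64%. Depth limits Ldhb, Egln3 and P4ha2, which sit near the floor of 3 fragments in some libraries.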
